A study of Mus musculus with 3 samples.

Results

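The genes described here encode 7 surface antigens that are used to tell memory-phenotype from naive CD8+ T cells or that serve T cell adhesion: Cd44, Ly6c2, Spn, Selplg, Cd2, Cd48 and Icam1. They were chosen by gene symbol, and all 7 had values among the 10191 genes measured. Expression was measured with 1 Affymetrix array for each of 3 CD8+ T cell populations: CXCR3+ innate, CXCR3- innate and naive. The cells of all groups were taken from spleen and lymph node of C57BL/6 CXCR3-GFP Reporter mice, in which a green fluorescent protein reports the chemokine receptor CXCR3 and which the RNA protocol calls CIBER mice. The mice were naive and kept free of pathogens, and their age was not given in the sources used here. Antibody staining, with CD44 and CD8 among the targets, preceded sorting by flow cytometry, and RNA was taken from about 3 to 5 mice. The word innate is taken from the labels, and the sort gates were not given in the sources used here.

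Memory-phenotype CD8+ T cells arise in mice that have met no known infection, and they are recognised by surface proteins rather than by a history of antigen. CD44 binds hyaluronan, and Ly6C is a small glycolipid-anchored antigen. CD43, encoded by Spn, and PSGL-1, encoded by Selplg, are sialomucins, long proteins covered with sugars, and PSGL-1 is a ligand of the selectins that slow leukocytes on vessel walls. CD2 binds CD48 in the mouse, and ICAM-1 binds the integrin LFA-1, so these pairs hold a T cell to its partner cell.

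Expression was read as log2 RMA values. Over all genes the median was 7.63 on the CXCR3+ innate array, 7.63 on the CXCR3- innate array and 7.65 on the naive array. No population was replicated, so no difference could be set against a spread between replicates, no test was possible, and neighbouring values in an order cannot be told apart from noise. A gene was called higher or lower by a rule of size: a difference of at least 1 on the log2 scale, which is 2-fold, with the higher value at or above the median of its array. Equal values were common, since 34.6% of genes had the same value on all 3 arrays. An exact difference of 0 therefore does not show equal expression. Every probe set in the table reached a log2 value of at least 7 on some array, and all 7 genes exceeded that level on all 3 arrays, so none of them entered the table through 1 population alone. The CD8 coreceptor gene Cd8a read 10.14 on the CXCR3+ innate array, 9.77 on the CXCR3- innate array and 10.43 on the naive array. The other coreceptor gene, Cd8b1, read 11.31, 11.29 and 11.54 in the same order.

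Ly6c2 and Cd44 were the members that passed the size rule, and the other 5 were close to level on all arrays. Against naive cells, 2 of 7 members were higher and none was lower in CXCR3+ innate cells, where 0.137% of all genes were higher and 0.0981% were lower. For CXCR3- innate cells against naive cells, 1 of 7 was higher and none was lower, against 0.0196% and 0.226% of all genes. In CXCR3+ innate minus CXCR3- innate, 1 of 7 was higher and none was lower, against 0.147% and 0.00981% of all genes. Cd44, 1 of the 2 members higher in CXCR3+ innate cells than in naive ones, encodes a sorting marker, so its call is no finding. The other was Ly6c2. The first and second comparisons share the naive array. Median differences of the 7 members were 0.00, -0.03 and 0.20 in these comparisons, where the median over all genes was 0.00 in each. The median of -0.03 took either sign with the scaling and lay between -0.03 and 0.02.

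**Figure D1:**
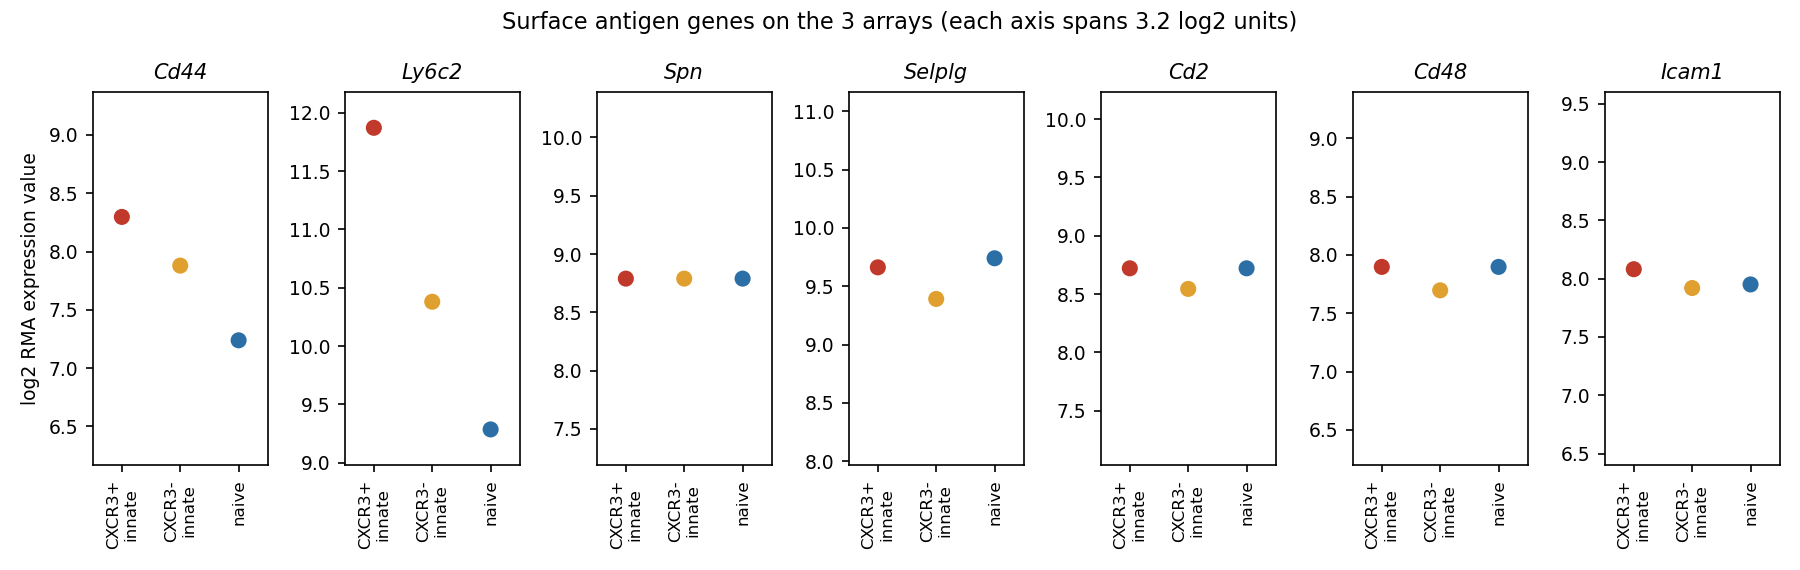
Log2 RMA values of the 7 surface antigen genes, with 1 point for each array and no error bars because no population was replicated. Each vertical axis spans the same range, so differences can be compared by eye: Ly6c2 and Cd44 step down across CXCR3+ innate, CXCR3- innate and naive cells, and the other genes stay within 0.35 of their own lowest value.

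Ly6c2 encodes the Ly6C antigen of memory-phenotype CD8+ T cells, which other blood cells such as monocytes also carry. It read 11.87 on the CXCR3+ innate array, 10.38 on the CXCR3- innate array and 9.28 on the naive array. The innate arrays were both above the naive array, and CXCR3- innate cells lay at 42.3% of the log2 distance between naive and CXCR3+ innate cells. Ly6c2 was 6.00-fold higher in CXCR3+ innate cells than in naive ones, the difference with rank 2 among 10191 genes. It was 2.14-fold higher in CXCR3- innate cells than in naive ones, again with rank 2. CXCR3+ innate cells were 2.81-fold above CXCR3- innate cells, with rank 3. It was the only member past the size rule in all 3 comparisons.

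Cells of another type in a sorted sample could carry some of these transcripts, and in bulk RNA fewer cells of a type cannot be told apart from less RNA per cell. Of 20 myeloid marker genes 8 had values, and Lyz2 and Csf1r were not among them. Their summed level was 10.45 on the CXCR3+ innate array, 10.54 on the CXCR3- innate array and 10.48 on the naive array on the log2 scale. Of 20 B cell markers 3 had values, Cd79a not among them, with summed levels of 9.09, 9.17 and 9.09 in the same order. Of 17 natural killer cell markers 5 had values, Klrb1c and Gzma not among them. Their sums were 10.91, 10.42 and 10.53, and Cd7 and Eomes in that list are also expressed by CD8+ T cells. Cd7 alone read 10.30, 9.59 and 9.97, and Eomes read 7.92, 7.77 and 7.06. Klra9 read 7.09, 6.28 and 6.05, Fcer1g 7.07, 6.98 and 6.93, and Ncr1 7.19, 7.43 and 7.19. The values of Klra9, Fcer1g and Ncr1 all lay below the array medians, and Ncr1 was highest in CXCR3- innate cells. For CD4 and regulatory T cells 2 of 7 markers had values, without Cd4 itself, with sums of 8.27, 8.57 and 8.41. For gamma-delta T cells 2 of 10 had values, without Trdc, with sums of 8.96, 8.76 and 8.72. Of these 2, Sox13 read 7.75, 7.79 and 7.75 and Cd163l1 read 8.14, 7.72 and 7.69. The natural killer and gamma-delta sums were highest where Ly6c2 and Cd44 were highest, and their part in those differences was not tested. Myeloid and B cell sums were not highest in CXCR3+ innate cells. Single myeloid markers read from 7.01 to 8.31 and single B cell markers from 7.04 to 8.15 over the arrays. In each comparison, 3 of the 8 myeloid and 1 of the 3 B cell markers lay at or above the array median. Sums of such dim values cannot show how much RNA of these cells a sample held.

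Cd44 encodes the hyaluronan receptor whose protein was a sorting marker, so its order on the arrays checks the sort and is no finding. Cxcr3, whose reporter set the innate populations apart, read 7.97 on the CXCR3+ innate array, 7.82 on the CXCR3- innate array and 7.57 on the naive array. It differed by 0.15 between the innate populations, 1.11-fold, so its RNA separated them little on these arrays. Cd44 read 8.30 on the CXCR3+ innate array, 7.88 on the CXCR3- innate array and 7.24 on the naive array. The order was the same as for Ly6c2, with both innate arrays above the naive one. Cd44 was 2.08-fold higher in CXCR3+ innate cells than in naive ones, with rank 11 of 10191 genes. With an offset of 16 on the linear scale the difference was 0.98 on the log2 scale and no longer passed the rule. In CXCR3- innate minus naive it differed by 0.64 on the log2 scale, 1.56-fold, with rank 7, and did not pass. Between the innate populations it differed by 0.42, with rank 254. The CXCR3- innate value of Cd44 stood at 60.5% of the distance from naive to CXCR3+ innate cells, further along than for Ly6c2. The naive value of Cd44 lay below the median of that array, 7.65, and both positions rest on 1 array a population. An order of CXCR3+ innate above CXCR3- innate above naive was seen in 3.98% of all genes and in 2 of 7 members. These were Ly6c2 and the sorting marker gene Cd44.

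**Figure D2:**
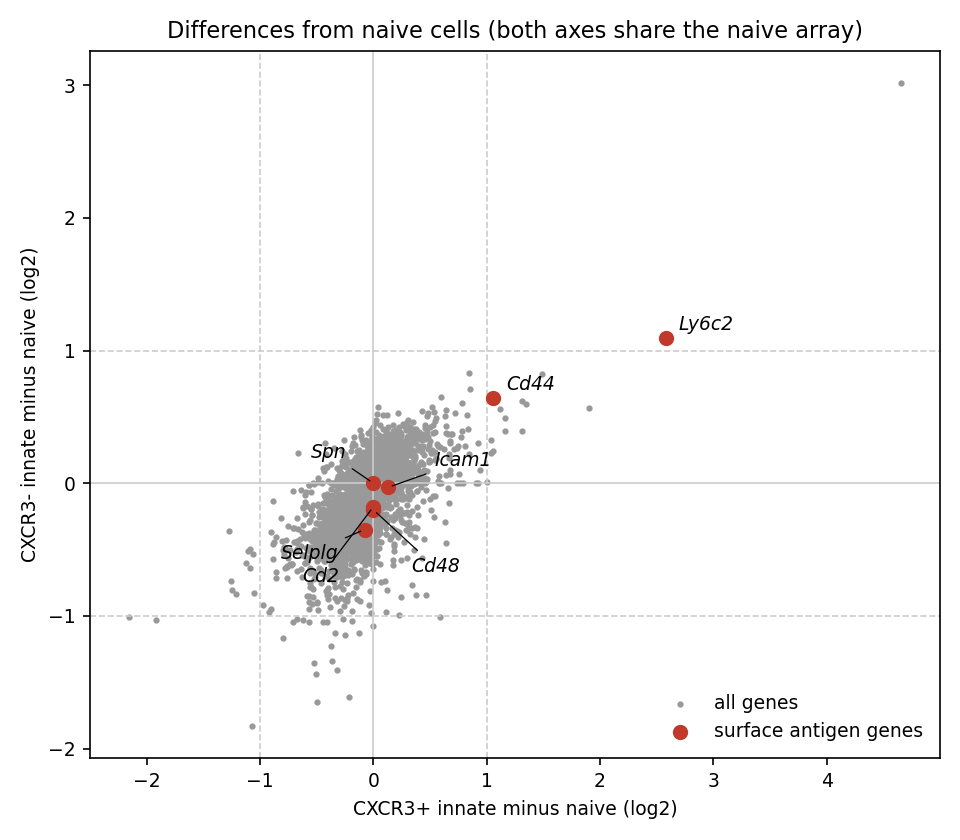
Difference of each gene from naive cells on the log2 scale, with CXCR3+ innate minus naive on the horizontal and CXCR3- innate minus naive on the vertical axis. Grey points are all genes, red points the 7 surface antigen genes, and dashed lines mark 2-fold. Ly6c2 lies past 2-fold on both axes and Cd44 on the horizontal one, while the other members sit in the cloud around 0.

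The genes closest to each of these in their pair of differences from naive cells were found by Euclidean distance on the log2 scale, over 3 arrays. For Cd44 they were Bhlhe40, a transcription factor, at a distance of 0.10, Plek, encoding pleckstrin, at 0.18, and Eomes, a T-box transcription factor, at 0.22. For Ly6c2 no gene kept in the search was as close. Klrc1, encoding the receptor NKG2A, stood at 0.86, Slamf7, a receptor of the SLAM family, at 1.13 and Xcl1, a chemokine, at 1.34.

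Because Ly6c2 and Cd44 shared their order over the populations, the 250 bases upstream of a transcription start were read for both from RefSeq sequences of assembly GRCm38.p6. Such sequences were found for 5 of the 7 genes. For Ly6c2, which has 2 starts in that table, the more upstream one was used. The bases were searched on both strands for motifs of factor families active in T cells: GGTGTGA (T-box), TGTGGT (RUNX), CCGGAA (ETS), GGAAATTCC (NF-kappaB) and TTCNNNGAA (STAT), and for TATAAA. Capitals mark the matches.
Ly6c2 (GRCm38.p6, chr15:75111972-75112221, minus strand): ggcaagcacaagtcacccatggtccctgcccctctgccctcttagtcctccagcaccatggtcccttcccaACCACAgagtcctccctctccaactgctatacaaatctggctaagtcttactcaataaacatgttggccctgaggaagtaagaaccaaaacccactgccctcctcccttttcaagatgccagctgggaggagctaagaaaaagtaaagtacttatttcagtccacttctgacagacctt
Cd44 (GRCm38.p6, chr2:102901666-102901915, minus strand): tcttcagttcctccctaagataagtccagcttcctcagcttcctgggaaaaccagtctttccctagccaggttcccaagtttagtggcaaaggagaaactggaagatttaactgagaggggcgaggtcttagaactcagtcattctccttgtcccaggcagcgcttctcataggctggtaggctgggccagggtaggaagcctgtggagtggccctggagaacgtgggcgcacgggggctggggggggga
The Ly6c2 window held 1 match, ACCACA, the reverse complement of the RUNX motif, with its first base at -179 relative to the start. RUNX letters occurred in 14% of all 32851 upstream windows. The motifs were chosen after the sequences were read, so such shares are given for scale and test no match. No motif searched was in the Cd44 window, so the pair had none in common. G and C made up 50% of the Ly6c2 window and 56.4% of the Cd44 window, against a median of 52.4% over all windows. T-box letters occurred in 3.33% of all windows and, among the 5 members, in that of Cd48 alone, where the match overlapped one to the RUNX motif. The Spn window held no match.

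The Ly6 genes lie in a cluster, and Ly6c2 stood apart from the measured ones beside it. These neighbours, named after their values were seen, were taken from the order of protein-coding genes in the RefSeq table. Ly6a2, the adjacent gene, read 8.05 on the CXCR3+ innate array, 7.67 on the CXCR3- innate array and 7.58 on the naive array. Its order matched that of Ly6c2, with a difference of 0.47 on the log2 scale in CXCR3+ innate minus naive and 0.09 in CXCR3- innate minus naive. Ly6g2 differed by 0.05 and 0.02 in the same comparisons. Ly6e and Ly6m had equal values on all 3 arrays. Ly6c1, a near copy of Ly6c2, and Ly6a, which encodes Sca-1, were not among the measured genes. Any Ly6c1 RNA bound by the Ly6c2 probe set could not be told apart from that of Ly6c2.

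Other small lipid-anchored lymphocyte antigens did not pass the size rule in any comparison, with 11 of 25 listed genes measured. At most 0.226% of all genes passed it in a direction of any comparison, so a short list without a call is common. The list medians were 0.00 in all 3 comparisons. Plaur, encoding the urokinase receptor, had the widest spread, at 6.30 on the CXCR3+ innate array, 6.82 on the CXCR3- innate array and 7.42 on the naive array. Its difference of -1.12 in CXCR3+ innate minus naive exceeded 2-fold, but all 3 values lay below the array medians. Cd52 read 8.69, 8.10 and 8.71 in that order of populations, so CXCR3- innate cells were lowest. Cd55, the complement decay factor, differed from naive cells by -0.40 in CXCR3+ innate and -0.35 in CXCR3- innate cells. Thy1, a pan-T cell antigen, differed by -0.10 and -0.31 in the same way. For Ly6d the differences were 0.11 and 0.28, and for Ly6g6c 0.08 and 0.08.

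The sialomucin genes Spn and Selplg were not higher in the innate populations on these arrays. Spn, encoding CD43, read 8.79 on each of the 3 arrays. Over the scalings tried its differences lay between 0.00 and 0.07 for CXCR3+ innate minus naive and between 0.00 and 0.14 for CXCR3- innate minus naive. Antibodies used to stage T cells can tell glycoforms of CD43 apart, which an RNA probe does not. Selplg, encoding PSGL-1, averaged 9.66 on the CXCR3+ innate array, 9.39 on the CXCR3- innate array and 9.74 on the naive array over 2 probe sets. The first probe set read 8.18, 7.83 and 8.22, and the second 11.15, 10.95 and 11.26, in the same order of populations. Both put CXCR3- innate cells lowest and naive cells highest. From naive cells Selplg differed by -0.08 in CXCR3+ innate cells and -0.35 in CXCR3- innate cells. Over the alternatives these lay between -0.12 and -0.02 and between -0.35 and -0.23, with the smallest size after quantile normalization for both. Its difference was 0.27 in CXCR3+ innate minus CXCR3- innate. Of all genes, 7.10% had a lower difference than Selplg in CXCR3- innate minus naive.

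Genes that build the sugars of these sialomucins also gave no call, which does not show level expression. PSGL-1 binds selectins only after O-glycans on it are branched, sialylated and fucosylated. Of 41 listed enzymes and transporters 29 were measured. None passed the size rule in any comparison, where at most 0.226% of all genes did so in a direction. The list medians were 0.00 in all 3. Gcnt1 and Fut7, which encode the branching and fucosylating enzymes best known for this, were not among the measured genes. St3gal6, a sialyltransferase, read 8.06 on the CXCR3+ innate array, 7.51 on the CXCR3- innate array and 7.49 on the naive array, so CXCR3+ innate cells stood apart from the other two arrays. Its difference was 0.57 in CXCR3+ innate minus naive and 0.02 in CXCR3- innate minus naive. The related St3gal4 read 7.72, 7.71 and 7.70. St3gal1, which sialylates core O-glycans, read 8.54, 8.73 and 8.95, the opposite order to Ly6c2. Galnt6, which starts O-glycans, read 7.91, 8.10 and 8.48, again highest in naive cells. St8sia1, the ganglioside GD3 synthase, read 6.61, 7.36 and 7.49, below the array median everywhere. C1galt1, which extends the first sugar, read 8.56, 8.47 and 8.56. B4galt5, a galactosyltransferase, differed by 0.25 and Slc35c1, the transporter of activated fucose, by -0.30 in CXCR3+ innate minus naive.

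Other sialomucins and selectins had 7 of 13 genes measured, with none past the size rule. At most 0.226% of all genes passed it in a direction of any comparison. The list median was -0.28 in CXCR3- innate minus naive, between -0.28 and -0.08 over the scalings, and 0.00 in CXCR3+ innate minus naive. Cd164 differed from naive cells by -0.07 in CXCR3+ innate and -0.28 in CXCR3- innate cells. Tmem123 read 9.54 on the CXCR3+ innate, 9.31 on the CXCR3- innate and 9.64 on the naive array. Both had their lowest value in CXCR3- innate cells, as Selplg did. Cd7 read 10.30, 9.59 and 9.97, also lowest there but highest in CXCR3+ innate cells. Cd96, a receptor for nectin-like ligands, read 9.47, 9.53 and 9.91, higher in naive than in both innate populations. The endothelial genes Sele and Glycam1 differed by at most 0.10 between any arrays.

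The receptor gene Cd2 and the gene of its ligand, Cd48, showed the same picture as each other. Cd2 read 8.72 on the CXCR3+ innate array, 8.54 on the CXCR3- innate array and 8.72 on the naive array. Cd48 read 7.90 on the CXCR3+ innate array, 7.70 on the CXCR3- innate array and 7.90 on the naive array. In each gene the CXCR3+ innate and naive values were equal and the CXCR3- innate value was lower, by 0.18 on the log2 scale for Cd2 and 0.20 for Cd48. After quantile normalization the CXCR3- innate minus naive difference of Cd2 was -0.05, and over the scalings that of Cd48 lay between -0.20 and -0.16. This form, with 2 equal arrays and CXCR3- innate below them, was found in 4.99% of all genes. With either of the other arrays allowed to be higher, CXCR3- innate cells were lowest in 4 of 7 members and in 20.7% of all genes. Of all genes, 17.7% had a lower difference than Cd2 in CXCR3- innate minus naive.

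Cd48 lies among the genes of the SLAM family, whose products are mostly receptors for themselves on other lymphocytes. Its 6 measured neighbours there did not share 1 order. Slamf7 read 8.84 on the CXCR3+ innate array, 8.17 on the CXCR3- innate array and 7.35 on the naive array, the order of Ly6c2 and Cd44. It was 2.81-fold higher in CXCR3+ innate cells than in naive ones and was the only neighbour of a member within 5 protein-coding genes on either side to pass the size rule in any comparison. Slamf1 read 7.14, 7.57 and 7.76 in that order of populations. Slamf6 read 7.87, 8.21 and 8.36, and Cd84 read 8.34, 8.48 and 8.60. These 3 genes had the reverse order, highest in naive cells, and none reached 2-fold. Ly9 and Alyref2, named after their values were seen, had the form of Cd48, with equal CXCR3+ innate and naive values and a CXCR3- innate value lower by 0.01 for Ly9 and 0.23 for Alyref2. Of the other named genes tied to CD2, Cd2ap, encoding an adaptor of its cytoplasmic tail, read 7.73, 8.02 and 8.29. The kinase gene Fyn read 9.34, 9.10 and 9.26. In all, 10 of 15 listed genes of this family and its adaptors were measured. In CXCR3+ innate minus naive 1 was higher and none lower, against 0.137% and 0.0981% of all genes. No gene passed in either of the other comparisons. The list medians were 0.00 in CXCR3+ innate minus naive, -0.12 in CXCR3- innate minus naive and 0.01 between the innate populations. The first was -0.13 over only the members at or above the array median, and the second was -0.02 after quantile normalization.

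**Figure D3:**
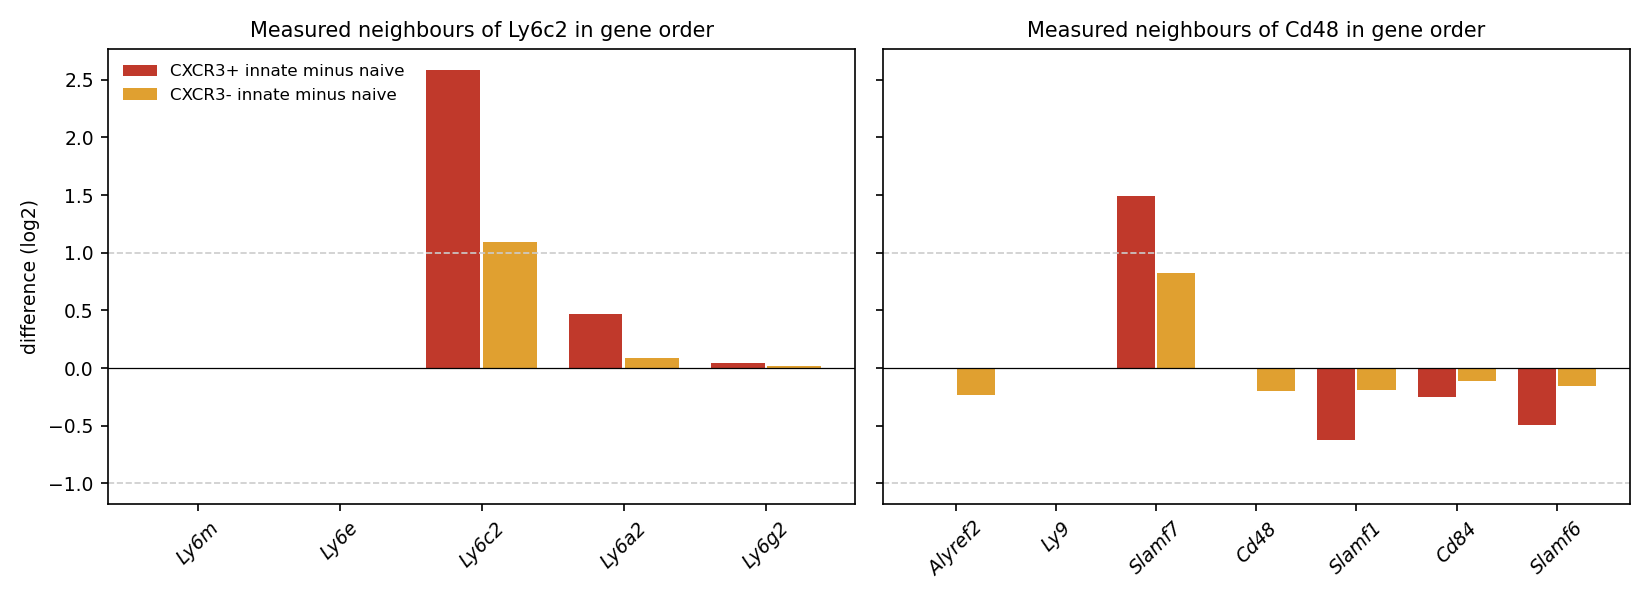
Differences from naive cells on the log2 scale for Ly6c2 and Cd48 and the measured genes among the 5 protein-coding genes on each side, in chromosomal order. Red bars are CXCR3+ innate minus naive, yellow bars CXCR3- innate minus naive, missing bars are differences of 0, and dashed lines mark 2-fold. Ly6c2 and Slamf7 pass 2-fold, and Slamf1, Cd84 and Slamf6 have negative differences.

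Icam1 encodes an adhesion molecule that is induced on many cells by inflammatory cytokines. It read 8.08 on the CXCR3+ innate array, 7.92 on the CXCR3- innate array and 7.95 on the naive array. CXCR3+ innate cells had the highest value, and the other two arrays were 0.03 apart. Icam1 differed by 0.13 in CXCR3+ innate minus naive, where 7.54% of genes had a higher difference. Its difference in CXCR3- innate minus naive was -0.03 and lay between -0.03 and 0.02 over the scalings. Its upstream sequence is shown because, of the members with one, it held the most motif matches while its values were nearly level. Capitals mark the matches.
Icam1 (GRCm38.p6, chr9:21015690-21015939, plus strand): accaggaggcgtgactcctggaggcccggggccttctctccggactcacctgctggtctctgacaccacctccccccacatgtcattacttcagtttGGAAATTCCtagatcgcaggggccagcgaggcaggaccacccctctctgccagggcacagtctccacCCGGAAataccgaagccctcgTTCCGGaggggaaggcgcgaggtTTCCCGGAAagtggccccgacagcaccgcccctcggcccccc
The window held GGAAATTCC, the NF-kappaB motif, which was found in 0.286% of all windows. Since the motifs were chosen with the sequences already read, this low share does not make the match a finding. It held 3 ETS matches, a motif found in 12% of windows, and 1 STAT match, found in 7.02%. The STAT match, TTCCCGGAA, overlaps one of the ETS matches. In this window 65.2% of bases were G or C.

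Neither chain of the integrin LFA-1, the receptor for ICAM-1, passed the size rule. Itgal, its alpha chain, read 9.67 on the CXCR3+ innate array, 9.61 on the CXCR3- innate array and 9.61 on the naive array. Itgb2, its beta chain, read 9.74, 9.49 and 9.58. Icam2, another ligand, read 7.43, 7.34 and 7.64. Of the named genes that serve to switch LFA-1 on, 4 read highest in naive cells. Rap1b, a small GTPase, read 10.88 on the CXCR3+ innate array, 10.67 on the CXCR3- innate array and 11.35 on the naive array. Apbb1ip, which encodes the Rap1 effector RIAM, read 8.63, 8.63 and 8.96. The adaptor gene Fyb read 9.41, 9.64 and 9.85, and Dock8 read 9.26, 9.45 and 9.64. Of 20 listed genes 15 were measured. None passed the size rule in any comparison, against at most 0.226% of all genes in a direction. Against naive cells 12 were below 0 in CXCR3+ innate cells, with 8 to 12 below 0 over the scalings and a median of -0.10, between -0.10 and -0.03. The CXCR3- innate cells had 12 below 0 as well, but 6 to 12 over the scalings, and the median of -0.10 took either sign, up to 0.02 after rescaling. Below 0 in these comparisons were 34.2% and 36.3% of all genes.

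Partners of CD44 gave no call either, with 8 of 21 listed genes measured. Since at most 0.226% of all genes were called in a direction, this absence does not show level expression. The ERM proteins link CD44 to actin. Ezr, encoding ezrin, read 9.51 on the CXCR3+ innate array, 9.22 on the CXCR3- innate array and 9.51 on the naive array. Msn, encoding moesin, read 10.64, 10.57 and 10.97, and Rdx, encoding radixin, read 7.88, 7.92 and 8.10. None of the 3 had its highest value in an innate population alone. Mif, a cytokine that signals through CD74 with CD44, read 8.58, 7.89 and 8.40, so that CXCR3- innate cells were lowest. Adam10, a protease that sheds CD44, differed by -0.07 and -0.09 from naive cells in CXCR3+ innate and CXCR3- innate cells. Lyve1, another hyaluronan receptor, differed by 0.20 and 0.17 in the same way. Its values of 7.38, 7.35 and 7.18 all lay below the array medians. The list medians were -0.03 in CXCR3+ innate minus naive, -0.14 in CXCR3- innate minus naive and 0.02 in CXCR3+ innate minus CXCR3- innate. Those of CXCR3+ innate cells against either other population took either sign with the scaling.

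Other genes of memory-phenotype CD8+ T cells differed more than the adhesion lists. They are shown beside Ly6c2 and Cd44 only for size, since they were listed with earlier results of these arrays known. Of 23 listed genes 20 were measured. Compared with naive cells, 6 of the 20 were higher and none lower in CXCR3+ innate cells (median difference 0.65), and 1 was higher and none lower in CXCR3- innate cells (median difference 0.15). Over only the 16 members at or above the array median the CXCR3- innate median was 0.02. Between the innate populations 3 were higher and none lower in CXCR3+ cells, at a median difference of 0.58. Of all genes, 0.137%, 0.0196% and 0.147% were higher in these 3 comparisons, in this order, and 0.0981%, 0.226% and 0.00981% were lower. Ccl5, a chemokine, had a larger difference than Ly6c2 in all 3 comparisons, at 4.66, 3.02 and 1.64 on the log2 scale. Il2rb, a receptor chain for interleukin-2 and interleukin-15 and a common memory-phenotype marker, read 10.85 on the CXCR3+ innate array, 9.86 on the CXCR3- innate array and 9.85 on the naive array. In CXCR3- innate cells Il2rb was thus close to its naive value, whereas Ly6c2 and Cd44 stood between the other arrays. Tbx21, encoding T-bet, read 8.68, 7.98 and 7.37, and Il18rap, which encodes an interleukin-18 receptor chain, read 8.20, 7.28 and 6.88. Ctsw, encoding cathepsin W, read 10.80, 9.71 and 10.16 and was lowest in CXCR3- innate cells.

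**Figure D4:**
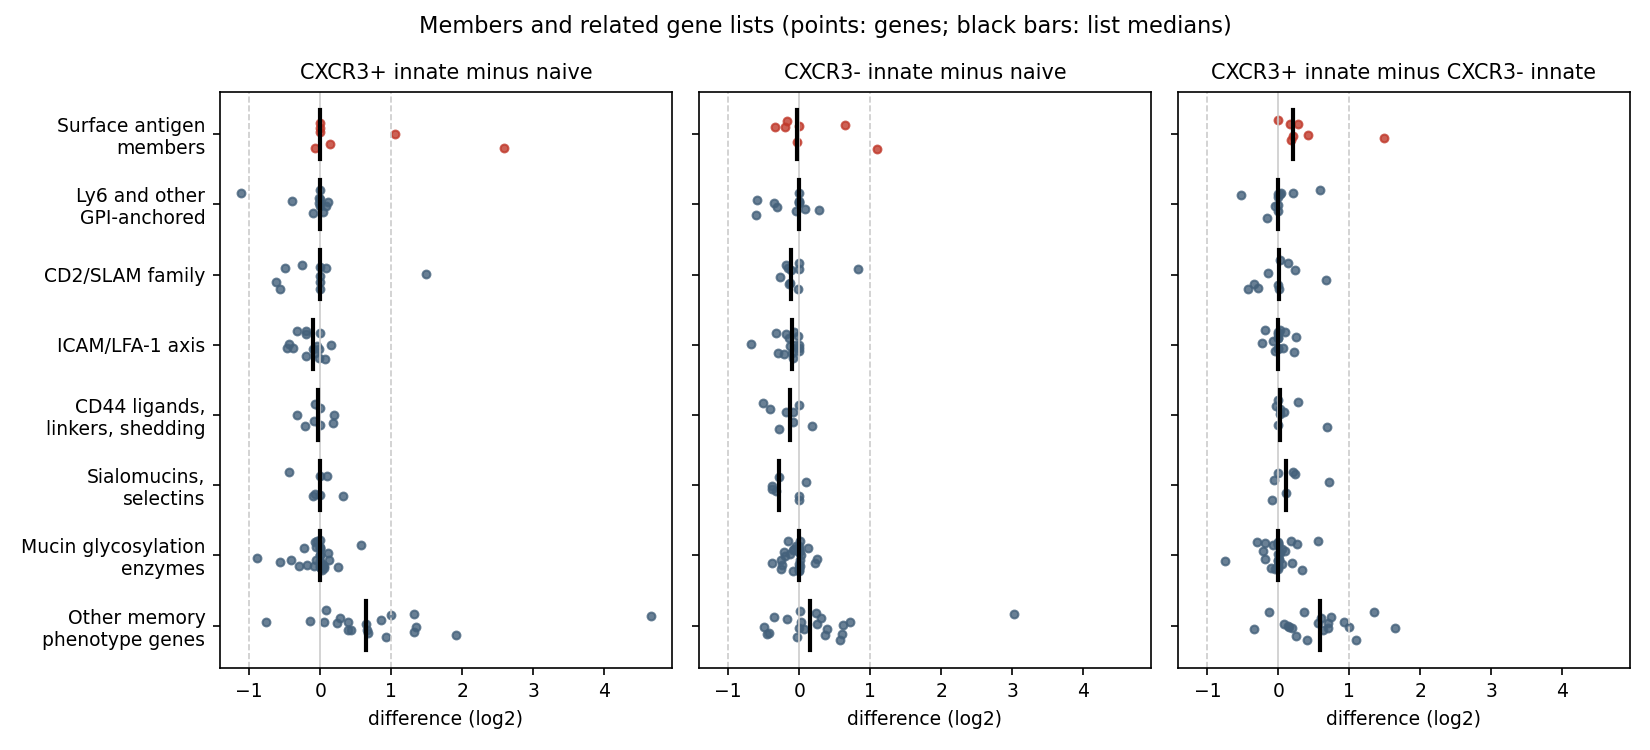
Log2 differences of the 7 surface antigen genes (red) and of the measured genes of 7 related lists (blue) in the 3 comparisons, with 1 point a gene, a black bar at the list median and dashed lines at 2-fold. Ly6c2 has the highest difference among the members in each comparison, the medians of the adhesion lists lie within 0.28 of 0, and among the other memory-phenotype genes Ccl5 reaches further than Ly6c2.

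Between the innate populations, 6 of 7 members had a difference above 0 and Spn was equal, where 28.7% of all genes were above 0 and 49.0% were equal. Besides Ly6c2 and Cd44, given above, these were Selplg at 0.27, Cd48 at 0.20, Cd2 at 0.18 and Icam1 at 0.16. These 4 genes were all in the upper part of the distribution over genes, where 5.55% to 10.7% of genes had a larger difference. None came near 2-fold. The coreceptor gene Cd8a differed by 0.37 and the other coreceptor gene, Cd8b1, by 0.02 in the same comparison. Over the scalings tried the 6 differences stayed above 0. All 7 members lay above the array medians, whereas the shares cover dim genes too. Over all genes this comparison also leaned upwards, with 102 genes higher and 8 lower at 1.5-fold. The part of that lean in the 6 differences was not tested.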

How the data were processed

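The authors deposited log2 expression values. Per the submitters' processing notes these come from RMA, as run by Affymetrix Expression Console of a version not given in the sources used here. The method removes background, gives the arrays a common distribution and then reduces each probe set to 1 value. The table held 12417 probe sets on 3 arrays. The platform annotation gave 1 gene symbol to 10576 of them, several to 1108 and none to 733, and only the first kind was used. Where a gene had several probe sets, as 273 did, their log2 values were averaged, for 10191 genes in all. With 1 array a group no test, error or leave-one-out value exists, so the size rule described above was used, at 2-fold and the array median over genes. The number of arrays limits the precision. Simulated data with known differences were used to check the code of the rule. Their noise was set by hand, since no replicate gives it, so they do not show how the rule performs on these arrays. The members, the gene lists and the motifs were chosen with earlier results of these data known, and the motifs after the sequences were read.

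Named were all 7 members and, in each related list, the 6 measured genes with the largest spread over the arrays, those past the size rule and direct partners of a member. For Ly6c2 and Cd44 the 3 nearest genes by Euclidean distance were named, leaving out predicted genes, receptors of smell, small RNAs and antigen receptor segments. These were dropped by the letters of their symbols, so every gene whose symbol begins with Rn was left out too. The alternatives were other filters on dim genes, other fold thresholds, quantile normalization, cyclic loess, median centring, a linear offset and other uses of multiple probe sets. Gene order and symbols came from a RefSeq table of GRCm38.p6, whose gene coordinates are not printed because no build is given for the array. The alternatives by quantile and cyclic loess used limma 3.58.1 under R 4.3.3, and all else Python 3.11.15 with pandas 2.3.3 and numpy 2.4.6.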

Additional observations from a re-analysis of the deposited data

How the results depend on the processing

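The number of members past the size rule was the same without a filter on dim genes, with one at the 75th percentile, after quantile normalization, cyclic loess, median centring and both other uses of multiple probe sets. In CXCR3+ innate minus naive it was 1 with the linear offset of 16 and 1 at 3-fold, in each case without Cd44, against 2 as reported. In CXCR3- innate minus naive it was 2 at 1.5-fold, with Cd44 added where 0.0981% of all genes were higher, and 0 at 3-fold, against 1. In CXCR3+ innate minus CXCR3- innate it was 0 at 3-fold, against 1. Over all genes, 122 passed at 1.5-fold and 5 at 3-fold in CXCR3+ innate minus naive, against 24. In CXCR3- innate minus naive 173 passed at 1.5-fold and 4 at 3-fold, against 25, and 11 passed after quantile normalization, where 18.2% of calls were higher, against 8.0%. In CXCR3+ innate minus CXCR3- innate 110 passed at 1.5-fold and 2 at 3-fold, against 16. The counts at other folds follow from the threshold, and for quantile normalization and the offset the cause was not tested. Of 105 recomputed member differences 5 moved by 0.1 or more, and no difference past 2-fold changed sign. All 5 moved after quantile normalization: in CXCR3- innate minus naive, Ly6c2 was 1.28, Selplg -0.23, Cd2 -0.05 and Spn 0.14, and between the innate populations Ly6c2 was 1.38. Of 251 recomputed list medians 9 moved by as much. Besides those given above, the sialomucin median of CXCR3- innate minus naive was -0.08 after quantile normalization. Over only members at or above the array median it was 0.21 between the innate populations. The natural killer marker medians were then 0.59 in CXCR3+ innate minus naive and 0.42 between the innate populations. Each rested on 2 genes, Cd7 and Eomes, which CD8+ T cells also express. The median of CD4 and regulatory T cell markers was then -0.53 between the innate populations and rested on 1 gene, Ctla4. No paired analysis was possible because each population had 1 array, and no array could be left out for the same reason.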

Other observations

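Genes beside the other members on the chromosomes showed no difference past the size rule, which at most 0.226% of all genes passed in a direction. Among the 10 nearest protein-coding genes of each, 2 were measured for Cd44, 5 for Spn, 5 for Selplg, 3 for Cd2 and 4 for Icam1. Ppan, a ribosome assembly gene near Icam1, read 8.75 on the CXCR3+ innate array, 8.29 on the CXCR3- innate array and 8.83 on the naive array, the widest spread among them. Septin1, near Spn, read 9.39, 9.14 and 9.39 in the same order, the form also seen in Cd2 and Cd48. Cd2bp2, which encodes a protein that binds the CD2 tail, is adjacent to Spn and read 7.26, 7.24 and 7.26. These genes were picked after their values were seen.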
